A study of Sus scrofa with 60 samples.

Results

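Metallothioneins and the transporters that move zinc and manganese were followed in 60 liver libraries of neonatal pigs. The 8 genes are the rows of the count table with the symbols MT1D, MT3, MTF1, SLC30A1, SLC30A10, SLC39A14, SLC39A4, and SLC39A8, out of 30335 rows with a gene name. They were chosen with earlier results of these libraries known, and MT3 was chosen by its measured level in MLE-BDL against ENT-BDL livers. Values for that comparison, and those of MT3 wherever ENT-BDL or MLE-BDL pigs enter, are therefore a description without a test. All 8 passed the filter on low counts, under which 16210 genes were tested.

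Pigs were delivered by cesarean section before term and underwent bile duct ligation (BDL), which blocks bile flow out of the liver, or sham surgery. They were then fed an enteral milk replacer formula (ENT), or received parenteral nutrition (PN) into a vein with a soy oil lipid emulsion (SLE, Intralipid) or a mixed oil emulsion (MLE, SMOFlipid). Every pig received PN for a first period after birth, also those of the ENT groups, and liver was taken on day 14. The sham groups held 12 ENT, 10 SLE, and 9 MLE libraries, each taken as 1 pig, and the BDL groups held 10 ENT, 11 SLE, and 8 MLE pigs. PN and ENT pigs differed in both the route and the composition of the diet, which cannot be told apart here, and the zinc and manganese contents of the diets are not given in the sources used here.

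Metallothioneins are small proteins rich in cysteine that bind zinc and copper, and hepatocytes make them in large amounts. Their genes are switched on by the transcription factor MTF1, which senses free zinc, and also by glucocorticoids and inflammatory signals. Transporters of the SLC30 family (ZnT) move zinc out of the cytosol, and those of the SLC39 family (ZIP) move it in. Manganese uses members of both families, and the liver excretes it into bile.

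Libraries held between 14471963 and 21376410 counted reads. Levels are given as CPM, the count relative to the library's total after TMM scaling, and fold changes as log2 with the standard error (SE) of an edgeR quasi-likelihood model of all 60 libraries. A gene rose or fell where its adjusted p was under 0.05 over all tested genes, and was called where the fold change was also above 2. The 8 hepatocyte markers, among them ALB and APOA1, summed to between 63157 and 136653 CPM over all libraries. Replicate 2 of ENT-sham and replicate 1 of ENT-BDL were nearly alike, with a chi-square per degree of freedom of 1.93 against at least 16.2 in every other pair of libraries, although their labels give different surgery. Each ENT result of the 8 genes kept its side of the threshold without these libraries except where stated. The labels of SLE-sham replicates 9 and 10 give the same pig identifier, so that they may come from 1 animal. Both were kept, and an alternative chosen after seeing the data, with their counts summed as 1 pig, moved only MTF1 in SLE-sham against ENT-sham and SLC39A14 in MLE-BDL against SLE-BDL across the adjusted p.

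More of the 8 genes passed between PN and ENT than between BDL and sham. In SLE-sham against ENT-sham livers, 5 rose and 1 fell, and 3 of the 6 were past the 2-fold threshold (2 with the pigs' identifier number as a block, without SLC39A4). Over all tested genes in that comparison, 27.5% passed the adjusted p and 5.24% also the fold threshold. In MLE-sham against ENT-sham livers, 4 rose and 1 fell, and 2 were past the 2-fold threshold, where the shares over all genes were 21.1% and 3.71%. In SLE-BDL against ENT-BDL livers, 4 of the 7 genes other than MT3 rose and 1 fell, and 1 was past the 2-fold threshold (2 without ENT-BDL replicate 8), against 19.6% and 3.13% of all genes. The median log2 fold change was 0.41 and 0.50 for the 8 genes in sham livers and 0.64 for the 7 in BDL livers, whereas the median over all genes lay between -0.01 and 0.01 in every comparison. MLE-BDL against ENT-BDL livers, from which MT3 had been picked, are given below by values alone, with no count of the 8 genes. Over all tested genes 16.8% passed the adjusted p there and 3.18% also the fold threshold. The comparisons with ENT pigs share their ENT animals within each surgery.

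With BDL against sham, the share of these genes that passed was no higher than that over all genes in any diet. In ENT pigs 1 of the 7 genes other than MT3 fell, and 17.4% of all genes passed the adjusted p (3.39% with the fold threshold). In MLE pigs 1 of the 7 fell, where the shares were 14.4% and 3.78%. In SLE pigs the edgeR test found 0 of 8, with 3 at an unadjusted p under 0.05 and 1 by DESeq2, beside 4.54% and 1.49% of all genes. Between the lipid emulsions the count was 0 of 8 in sham livers and 0 of the 7 in BDL livers by edgeR. In sham livers 2 had an unadjusted p under 0.05 and DESeq2 passed 0, and in BDL livers 1 had an unadjusted p under 0.05 and DESeq2 passed 1. The shares over all genes were low there too, at 0.999% (0.463% with the fold threshold) in sham livers and 0.907% (0.37%) in BDL livers. Of the interactions of diet and surgery, 1 of the 7 genes passed for SLE against ENT (2.33% of all genes) and 0 of the 7 for MLE against SLE (0.265% of all genes), with 2 at an unadjusted p under 0.05 and 0 by DESeq2. The interaction for MLE against ENT, which contains the comparison that picked MT3, is not reported for these genes and passed in 0.0617% of all genes.

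**Figure D1:**
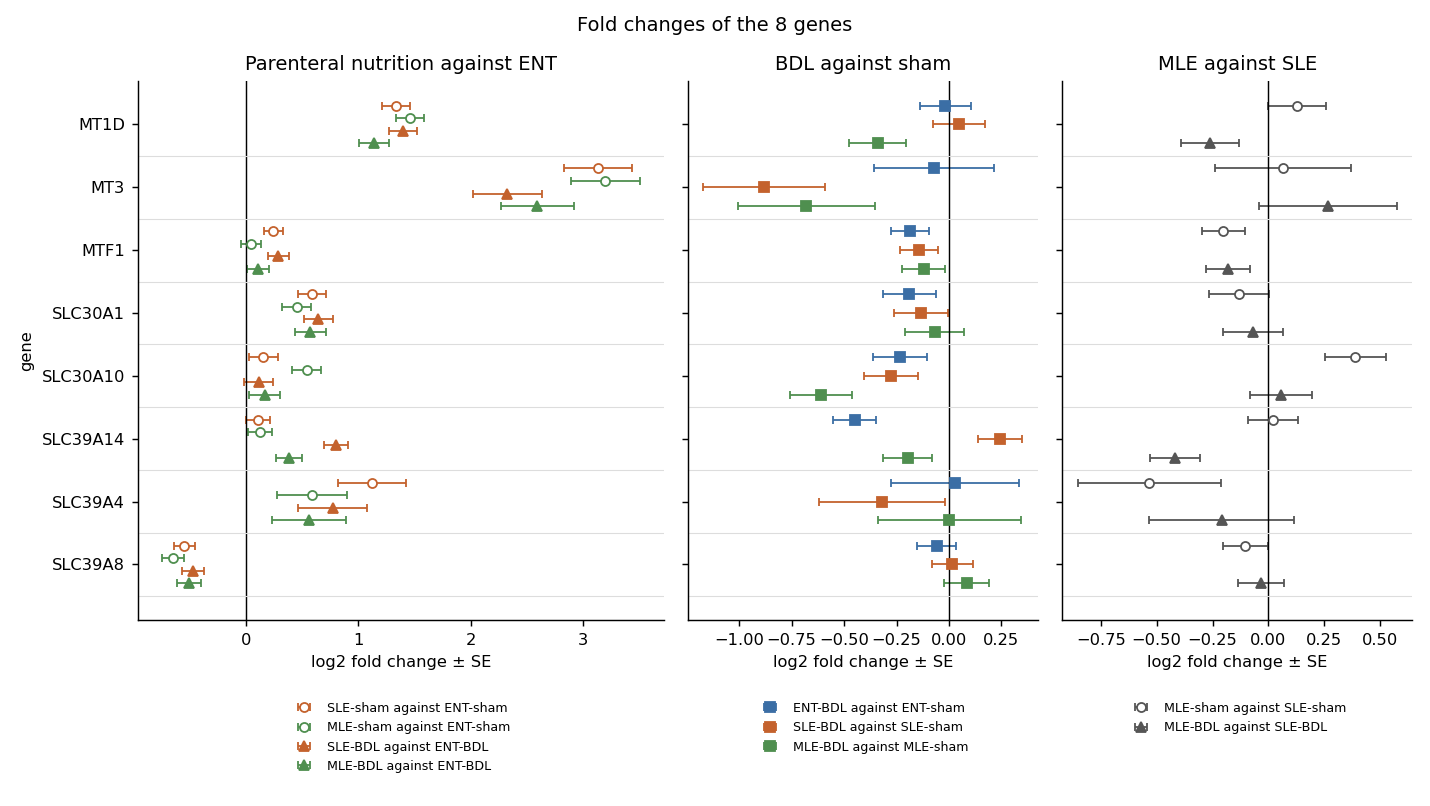
Log2 fold change ± SE (x axis) of each of the 8 genes (rows) for PN against ENT, for BDL against sham, and for MLE against SLE. The MT1D and MT3 points lie farthest right of 0 for PN against ENT, the SLC39A8 points lie left of 0, and points of the other panels lie mostly near 0. The x axes of the 3 panels differ in range.

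In the plot of fold changes, the widest gaps from 0 belong to the metallothioneins on PN. MT1D (gene identifier 100037920), a member of the abundant MT1 group, lies on chromosome 6 at chr6:18650985-18652317 of Sscrofa11.1, on the plus strand. In ENT-sham livers its level ran from 2311 to 4782 CPM with a median of 3620. In SLE-sham livers it ran from 7484 to 13470 CPM (median 8828), and in MLE-sham livers from 7318 to 12436 CPM (median 10028). Every PN sham pig was above every ENT sham pig. MT1D rose by 1.33 ± 0.12 (SE) on the log2 scale in SLE-sham (2.52-fold, adjusted p = 7.44e-13) and by 1.46 ± 0.12 in MLE-sham (2.75-fold, adjusted p = 1.41e-13).

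The same separation was present after BDL. MT1D in ENT-BDL livers ran from 2440 to 6099 CPM (median 3306), and in SLE-BDL livers from 7709 to 11834 CPM (median 9477). In MLE-BDL livers it ran from 6373 to 9560 CPM (median 7843). No ENT-BDL pig reached the lowest PN-BDL pig, although ENT-BDL replicate 3 came near it. MT1D rose by 1.40 ± 0.13 in SLE-BDL against ENT-BDL (adjusted p = 3.71e-12) and lay 1.14 ± 0.13 higher in MLE-BDL than in ENT-BDL. In order of the group means, MLE-sham, SLE-BDL, SLE-sham, and MLE-BDL formed an overlapping upper set and ENT-sham and ENT-BDL a lower one, with a gap between the sets. For MT1D the difference between BDL and sham was -0.02 ± 0.12 in ENT pigs (adjusted p = 0.948) and 0.05 ± 0.12 in SLE pigs (adjusted p = 0.886). In MLE the difference was -0.34 ± 0.14 with an adjusted p of 0.0869, and 0.0469 when only the MLE pigs were fitted, and the level was lower in 4 of 4 identifier numbers.

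MT3 (397123, chr6:18634735-18636134, plus strand), known elsewhere as the metallothionein of brain, showed a steeper difference at a lower level. In ENT-sham livers it ran from 12.9 to 92.7 CPM (median 50.7), and in SLE-sham livers from 228 to 961 CPM (median 349). In MLE-sham livers it ran from 136 to 654 CPM (median 476), where replicate 9 was the lowest and the next pig was at 385 CPM. The PN and ENT sham groups did not overlap. MT3 rose by 3.14 ± 0.30 in SLE-sham (8.79-fold, adjusted p = 5.62e-12) and by 3.20 ± 0.31 in MLE-sham (9.20-fold, adjusted p = 1.32e-11). Over all 60 livers the highest level was 74.4 times the lowest, against 5.83 times for MT1D and 2.11 to 11.7 times for the other 6 genes.

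After BDL the MT3 level was intermediate on PN. It ran from 24.9 to 78.8 CPM in ENT-BDL (median 44.8), from 71.0 to 380 CPM in SLE-BDL (median 244), and from 157 to 391 CPM in MLE-BDL (median 291). One SLE-BDL pig, replicate 4, fell within the ENT-BDL range, and no MLE-BDL pig did. MT3 lay 2.33 ± 0.31 higher in SLE-BDL and 2.59 ± 0.33 higher in MLE-BDL than in ENT-BDL. Against sham, MT3 differed with BDL by -0.07 ± 0.29 in ENT pigs and by -0.68 ± 0.33 in MLE pigs. The difference was -0.88 ± 0.29 for SLE pigs (adjusted p = 0.0673). The SLE value passed with DESeq2 (adjusted p = 0.0344) and without SLE-BDL replicate 1 (-0.98, adjusted p = 0.0484) or replicate 11 (-0.97, adjusted p = 0.0392). It did not pass in the other fits that left out 1 pig, where the adjusted p reached 0.185. Without SLE-sham replicate 5 the difference shrank to -0.67, and the level was lower in 3 of 4 identifier numbers.

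**Figure D2:**
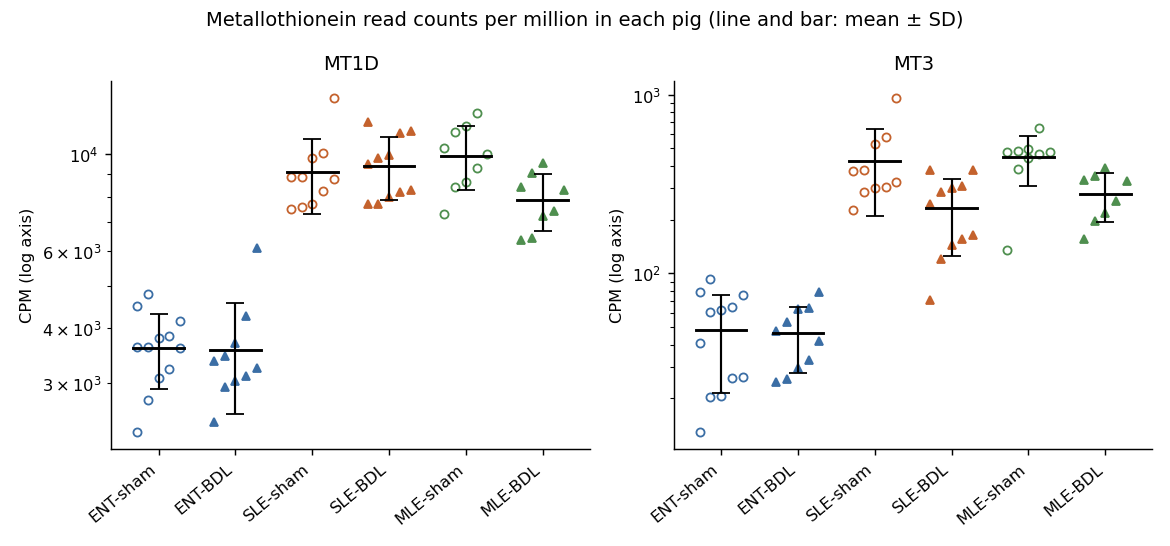
CPM of MT1D and MT3 (log axes) in each pig by group, with sham pigs as open circles, BDL pigs as filled triangles, and the group mean ± SD as line and bar. All PN pigs lie above all ENT pigs for MT1D, and for MT3 all but a SLE-BDL pig at 71.0 CPM do.

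As the plot by pig shows, a few animals stood apart within their group. SLE-sham replicate 5 was the highest of its group for both genes. Pigs carry an identifier number with 8 values whose meaning is not given in the sources used here, and MLE pigs have only some of these values. Within each number that held both groups, MT1D and MT3 were higher in SLE-sham than in ENT-sham (4 of 4 numbers), and in MLE-sham than in ENT-sham (2 of 2), and MT1D was higher in SLE-BDL than in ENT-BDL (5 of 5). For every gene, the MLE-sham comparison within numbers rests on ENT-sham replicates 11 and 12 alone. Replicate 11 was the lowest ENT-sham pig for MT1D, and replicate 12 for SLC30A1 and SLC30A10. With the number as a block, the log2 fold changes in SLE-sham were 1.45 for MT1D and 3.00 for MT3.

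MT1D and MT3 belong to a cluster of metallothionein genes on chromosome 6. The other genes between MT4 (chr6:18611245-18613956) and MT1A (chr6:18672016-18673673) are the protein-coding MT-2B, LOC100739663, and LOC102166944 and the antisense transcript LOC110260926. MT4 and MT1A were in the list of metallothioneins, and the other names were taken up for their position after values were seen. Metallothionein genes are known to be much alike in sequence, which was not compared here. Reads that match several of them could be split or dropped by the counting, so that counts of single genes are uncertain. Together the 7 protein-coding genes took 0.778% ± 0.133 (SD, n = 12) of the counts in ENT-sham livers, 1.75% ± 0.34 (n = 10) in SLE-sham, and 1.82% ± 0.21 (n = 9) in MLE-sham. In BDL livers they took 0.826% ± 0.191 (n = 10) in ENT, 1.62% ± 0.26 (n = 11) in SLE, and 1.61% ± 0.18 (n = 8) in MLE. This sum does not depend on how counted reads were split within the cluster, though reads dropped by the counting are not in it. The PN and ENT ranges overlapped only between ENT-BDL (up to 1.25%) and SLE-BDL (from 1.18%).

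MT4, known from stratified epithelium, was close to the detection limit in ENT-sham at 0.491 ± 0.449 CPM (SD, n = 12) and rose by 3.52 ± 0.46 in SLE-sham (adjusted p = 2.78e-08) and by 3.93 ± 0.47 in MLE-sham (adjusted p = 6.66e-09). MT-2B rose by 0.84 ± 0.10 in SLE-sham (adjusted p = 1.93e-09) and by 0.96 ± 0.10 in MLE-sham (adjusted p = 2.37e-10), and MT1A rose by 1.07 ± 0.21 (adjusted p = 6.85e-05) and 1.00 ± 0.21 (adjusted p = 3.83e-04). LOC102166944 and LOC100739663 rose in MLE-sham, by 1.19 ± 0.24 (adjusted p = 1.36e-04) and 2.01 ± 0.47 (adjusted p = 0.0012), and had adjusted p of 0.0735 and 0.107 in SLE-sham. All 7 protein-coding genes of the cluster thus rose in MLE-sham against ENT-sham livers, where 21.1% of all genes passed in either direction. In SLE-BDL against ENT-BDL livers MT4 rose by 2.61 ± 0.51 (adjusted p = 1.35e-04), MT-2B by 0.58 ± 0.10 (adjusted p = 3.23e-05), and LOC102166944 by 1.15 ± 0.24 (adjusted p = 3.62e-04), whereas MT1A (0.46 ± 0.22, adjusted p = 0.122) and LOC100739663 (0.86 ± 0.47, adjusted p = 0.203) did not pass. For MT1A 4 of 11 SLE-BDL pigs were above and 2 below every ENT-BDL pig. With BDL, MT4 fell by 1.41 ± 0.42 in SLE (adjusted p = 0.0397) and by 1.62 ± 0.47 in MLE (adjusted p = 0.0136), and MT-2B fell by 0.34 ± 0.11 in MLE (adjusted p = 0.0385). LOC110260926 overlaps MT1D and the start of LOC100739663 on the opposite strand, and the kit does not keep strand. Its highest count in any library was 32, against at least 34482 for MT1D and at least 7 for LOC100739663. Reads that overlap both genes could be dropped by the counting, so these counts do not show how many were lost.

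**Figure D3:**
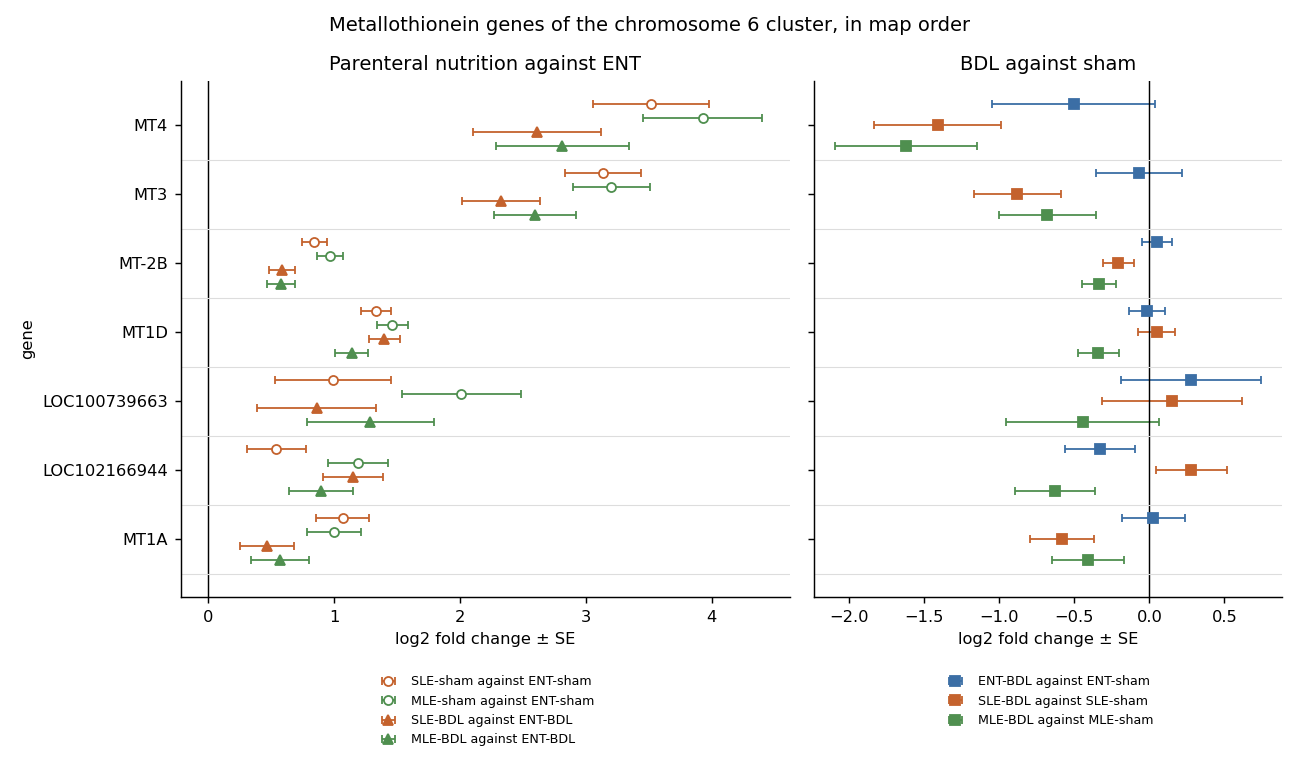
Log2 fold change ± SE (x axis) of the 7 protein-coding metallothionein genes in map order (rows), for PN against ENT and for BDL against sham. All points of the left panel lie above 0, with MT4 and MT3 the farthest, and in the right panel the SLE and MLE points of MT4, MT3, MT-2B, and MT1A lie left of 0.

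MTF1 (100511998, chr6:93837195-93884427, minus strand), the zinc-sensing activator of these genes, varied little. It ran from 9.92 to 20.9 CPM in ENT-sham (median 12.6), from 13.8 to 18.0 CPM in SLE-sham (median 15.2), and from 11.4 to 16.1 CPM in MLE-sham (median 13.5). The groups overlapped throughout. MTF1 rose by 0.24 ± 0.09 in SLE-sham against ENT-sham (adjusted p = 0.0336), but not with the identifier number as a block (adjusted p = 0.085), without a filter on low counts (0.0573), with only these groups fitted (0.0955), without the matching ENT libraries (0.0593), with SLE-sham 9 and 10 summed (0.0509), or without any 1 of ENT-sham replicates 2, 5, 6, 8, and 9 or SLE-sham replicates 3, 7, 8, and 9 (0.21 to 0.23, adjusted p from 0.0542 to 0.0736). In MLE-sham against ENT-sham the difference was 0.04 ± 0.09 (adjusted p = 0.794). After BDL it ran from 10.01 to 14.7 CPM in ENT (median 11.2), from 11.03 to 17.2 CPM in SLE (median 13.9), and from 10.4 to 14.6 CPM in MLE (median 12.4). MTF1 rose by 0.29 ± 0.09 in SLE-BDL against ENT-BDL (adjusted p = 0.0192) and lay 0.11 ± 0.10 higher in MLE-BDL. BDL against sham gave -0.19, -0.14, and -0.12 in ENT, SLE, and MLE, none of which passed.

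SLC30A1 (503660, chr9:131633586-131636934, plus strand) encodes ZnT1, the zinc exporter of the plasma membrane and a known MTF1 target. It ran from 21.2 to 44.1 CPM in ENT-sham (median 31.2), from 41.6 to 57.0 CPM in SLE-sham (median 49.6), and from 36.5 to 57.9 CPM in MLE-sham (median 45.5). Of the 10 SLE-sham pigs 9 were above all ENT-sham pigs, and 5 of the 9 MLE-sham pigs. SLC30A1 rose by 0.58 ± 0.13 in SLE-sham (1.499-fold, adjusted p = 2.39e-04) and by 0.45 ± 0.13 in MLE-sham (1.37-fold, adjusted p = 0.00769). After BDL it ran from 16.6 to 39.8 CPM in ENT (median 30.0), from 26.8 to 67.7 CPM in SLE (median 43.3), and from 34.1 to 50.1 CPM in MLE (median 44.4). It rose by 0.64 ± 0.13 in SLE-BDL (adjusted p = 1.99e-04) and lay 0.57 ± 0.14 higher in MLE-BDL than in ENT-BDL. Differences between BDL and sham were -0.19, -0.13, and -0.07 in ENT, SLE, and MLE and did not pass. Within the identifier numbers SLC30A1 was higher in 4 of 4 for SLE-sham, in 2 of 2 for MLE-sham, and in 5 of 5 for SLE-BDL. Its log2 differences by diet had the direction of those of MT1D and MT3, at a smaller size.

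SLC30A10 (100623097, chr10:9527523-9545493, minus strand) exports manganese from hepatocytes into bile, and its loss causes manganese overload in people. The level ran from 151 to 271 CPM in ENT-sham (median 207), from 164 to 284 CPM in SLE-sham (median 229), and from 181 to 398 CPM in MLE-sham (median 317). In MLE-sham 7 of 9 pigs were above every ENT-sham pig, and the group was higher in 2 of 2 identifier numbers. It rose by 0.54 ± 0.13 in MLE-sham against ENT-sham (1.45-fold, adjusted p = 0.00157), whereas SLE-sham against ENT-sham gave 0.15 ± 0.13 (adjusted p = 0.408). The difference of MLE-sham from SLE-sham was 0.39 ± 0.14 and did not pass (adjusted p = 0.179), but passed with the identifier number as a block (0.49, adjusted p = 0.0285).

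After BDL, SLC30A10 ran from 135 to 208 CPM in ENT (median 186), from 64.5 to 251 CPM in SLE (median 208), and from 165 to 232 CPM in MLE (median 202). SLE-BDL replicate 9 was the lowest of all 60 libraries. The 8 MLE-BDL pigs were below 8 of the 9 MLE-sham pigs, and the exception was MLE-sham replicate 2. SLC30A10 fell by 0.61 ± 0.15 in MLE-BDL against MLE-sham (0.655 times the sham level, adjusted p = 0.00224), and the differences in ENT (-0.23 ± 0.13, adjusted p = 0.213) and SLE (-0.28 ± 0.13, adjusted p = 0.235) had the same sign without passing. The fall in MLE was not shown to differ from that in SLE (interaction -0.33 ± 0.19, adjusted p = 0.6). Within the identifier numbers, MLE-BDL was lower than MLE-sham in 4 of 4. The BDL groups overlapped one another, with 0.11 ± 0.13 in SLE-BDL against ENT-BDL (adjusted p = 0.606).

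Markers of other cell types were read beside these results. The summed level of 8 cholangiocyte markers, all tested, ran from 73.3 to 372 CPM in ENT-sham and from 227 to 416 CPM in ENT-BDL, from 220 to 385 and from 266 to 453 CPM in the SLE groups, and from 172 to 243 and from 248 to 455 CPM in the MLE groups. With BDL 5 of the 8 rose in ENT, 1 in SLE, and 6 in MLE, where 17.4%, 4.54%, and 14.4% of all genes passed in either direction. The hepatocyte markers fell in MLE with BDL in 4 of 8 (median log2 fold change -0.50), and in ENT 3 fell and 1 rose, while in SLE the median of the 8 was -0.05 and none passed in edgeR. Of 8 stellate cell and fibroblast markers, 2 rose and 1 fell with BDL in ENT, 1 rose in SLE, and 4 rose and 1 fell in MLE. In bulk tissue fewer cells of a type and less RNA per cell cannot be told apart, and the part of the cell make-up in the falls of SLC30A10 and SLC39A14 was not tested. In sham livers 3 cholangiocyte markers rose in SLE and 2 in MLE against ENT, and 2 of 8 erythroid precursor markers fell in each, beside 27.5% and 21.1% of all genes that passed. The summed level of the erythroid markers ran from 481 to 2442 CPM in ENT-sham, from 224 to 836 CPM in SLE-sham, and from 441 to 839 CPM in MLE-sham. With BDL 2 of the 8 fell in MLE pigs, and the median log2 difference was 0.70 in ENT, 0.76 in SLE, and -0.40 in MLE pigs. The BDL groups ran from 345 to 3862 CPM in ENT, from 131 to 1403 CPM in SLE, and from 142 to 513 CPM in MLE. In SLE-BDL against ENT-BDL 1 erythroid marker fell, 1 cholangiocyte marker rose, and 1 hepatocyte marker rose and 1 fell, beside 19.6% of all genes. In MLE-BDL against ENT-BDL the median log2 difference was -2.07 for the erythroid markers, 0.08 for the cholangiocyte markers, and -0.05 for the hepatocyte markers. The part of these cell types in the differences of the 8 genes was not tested.

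**Figure D4:**
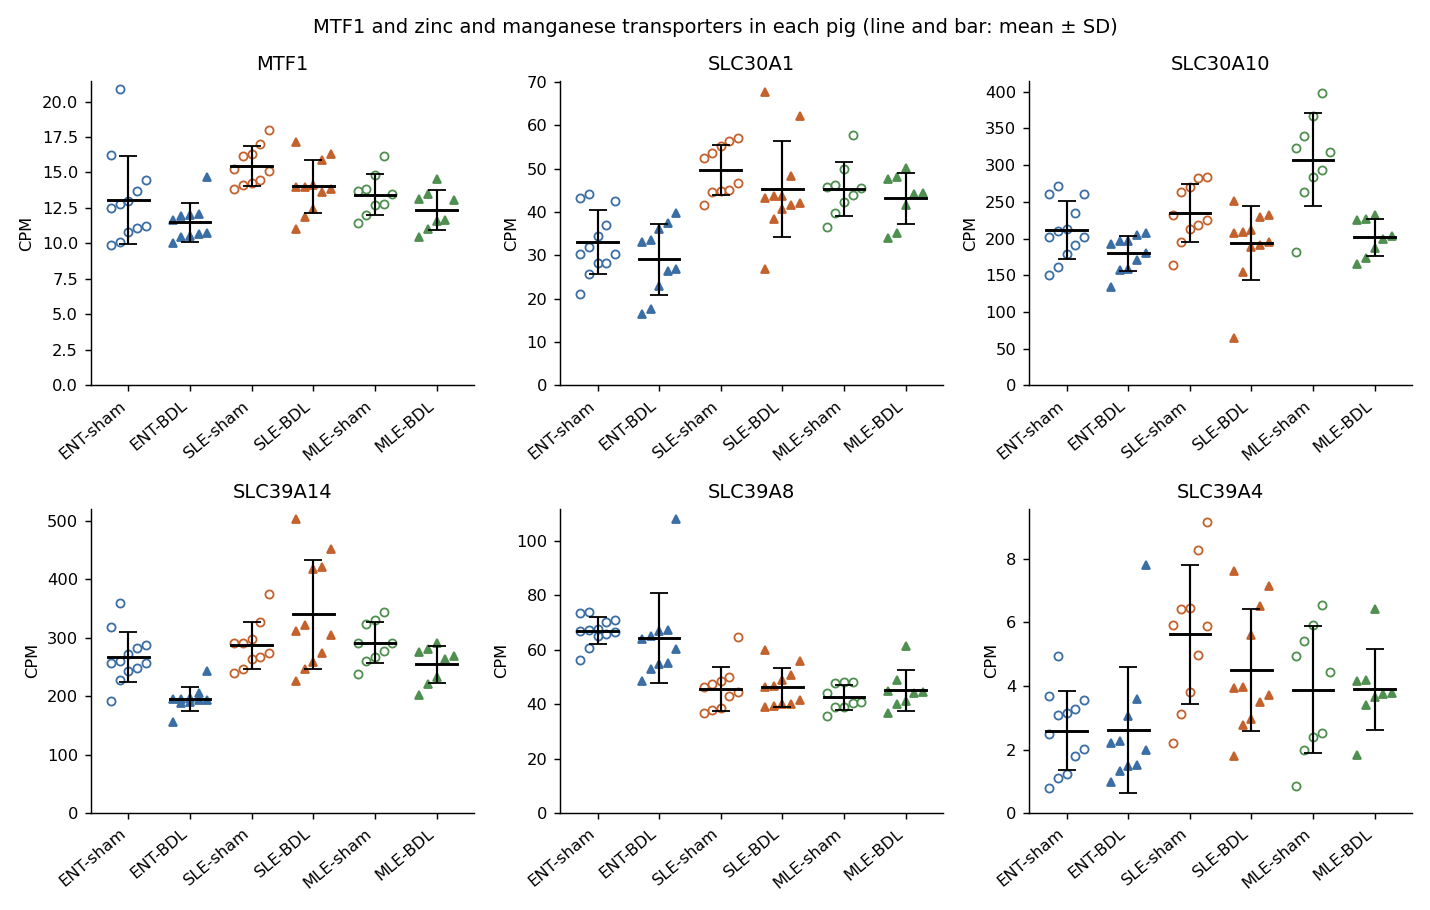
CPM (linear axes from 0) of MTF1 and of the 5 transporters in each pig by group, with sham pigs as open circles, BDL pigs as filled triangles, and the group mean ± SD as line and bar. SLC30A1 lies higher and SLC39A8 lower in PN groups, SLC30A10 is highest in MLE-sham, and SLC39A14 is lowest in ENT-BDL and most spread in SLE-BDL.

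Among the importers shown in the plot of transporters is SLC39A14 (100152468, chr14:6639485-6687929, plus strand). Of the 7 genes other than MT3, it alone passed the interaction test of BDL with SLE against ENT. It encodes ZIP14, which carries zinc, manganese, and iron into hepatocytes and is known to be induced by interleukin-6. In ENT-sham livers it ran from 192 to 359 CPM (median 258), and in ENT-BDL livers from 156 to 243 CPM (median 194). The lowest ENT-sham value belonged to replicate 2, the library that matched ENT-BDL replicate 1 (194 CPM). SLC39A14 fell by 0.45 ± 0.10 in ENT-BDL (adjusted p = 0.00134), and without the matching libraries by 0.49 ± 0.11 (adjusted p = 5.39e-04). It was lower in ENT-BDL within 6 of 6 identifier numbers.

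In SLE the direction was the opposite, without passing. SLC39A14 ran from 239 to 375 CPM in SLE-sham (median 282) and from 227 to 504 CPM in SLE-BDL (median 312), where 4 of 11 BDL pigs were above all sham pigs. The difference was 0.24 ± 0.11 (adjusted p = 0.188). The effect of BDL differed between SLE and ENT by 0.69 ± 0.15 (adjusted p = 0.00427), and by 0.73 ± 0.15 without the matching ENT libraries (adjusted p = 0.00139). In MLE the level ran from 238 to 344 CPM with sham (median 291) and from 203 to 291 CPM with BDL (median 266), a difference of -0.20 ± 0.12 (adjusted p = 0.278). Its interaction against SLE was -0.44 ± 0.16 (adjusted p = 0.293).

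Sham livers differed little in SLC39A14 by diet, with 0.10 ± 0.10 in SLE-sham (adjusted p = 0.487) and 0.13 ± 0.11 in MLE-sham (adjusted p = 0.43) against ENT-sham. In BDL livers the log2 differences from ENT were larger. For SLE this rests on the interaction test above, and for MLE it is a description without a test. SLC39A14 rose by 0.80 ± 0.11 in SLE-BDL against ENT-BDL (1.74-fold, adjusted p = 1.14e-07), with 10 of 11 SLE-BDL pigs above all ENT-BDL pigs and a higher level in 5 of 5 identifier numbers. It lay 0.38 ± 0.11 higher in MLE-BDL than in ENT-BDL. MLE-BDL against SLE-BDL gave -0.42 ± 0.11 at an adjusted p of 0.0518. That value passed under 6 of 9 other settings, among them DESeq2 (0.0174), and without any 1 of SLE-BDL replicates 1, 2, 3, 8, 10, and 11 (-0.47 to -0.44, adjusted p from 0.0179 to 0.0485). It did not pass in the other fits that left out 1 pig, where the adjusted p reached 0.131. Without SLE-BDL replicate 7, the highest pig, the difference was -0.35.

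The genes of acute-phase proteins, which the liver makes under interleukin-6 and STAT3, were read beside SLC39A14. Of a list of 13 such genes, 7 fell with BDL in ENT (median log2 fold change -0.59), 1 rose in SLE (median 0.35), and 8 fell in MLE (median -0.79), where 17.4%, 4.54%, and 14.4% of all genes passed. The interaction of BDL with SLE against ENT was positive and passed for 7 of the 13 (2.33% of all genes), and that with MLE against SLE was negative and passed for 5 (0.265% of all genes). HP, the haemoglobin scavenger haptoglobin, fell by 0.99 ± 0.28 in ENT (adjusted p = 0.00834) and by 1.38 ± 0.32 in MLE (adjusted p = 0.00146), and rose by 0.94 ± 0.28 in SLE (adjusted p = 0.0399). ITIH4, a plasma protease inhibitor relative, fell by 1.13 ± 0.21 in ENT (adjusted p = 6.36e-05) and by 1.38 ± 0.23 in MLE (adjusted p = 3.55e-05). Their part in the change of SLC39A14, which did not pass in MLE, was not tested. In the sham livers, where MT1D and MT3 rose on PN, 7 of the 13 acute-phase genes fell in SLE and 3 in MLE against ENT, where 27.5% and 21.1% of all genes passed in either direction, so that the MLE count was near the share over all genes. In SLE-BDL against ENT-BDL, where MT1D also rose, 5 of the 13 rose and 1 fell (median 0.42, with 19.6% of all genes passing), and the median in MLE-BDL against ENT-BDL was -0.38.

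**Figure D5:**
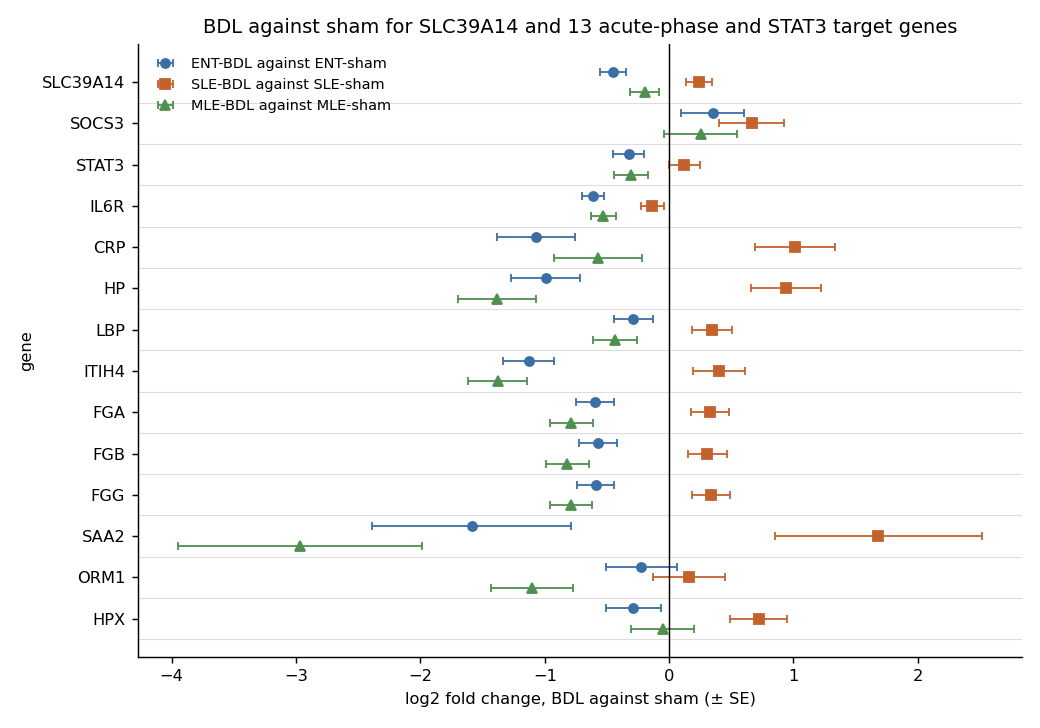
Log2 fold change ± SE (x axis) of BDL against sham in ENT (circles), SLE (squares), and MLE (triangles) for SLC39A14 and the 13 acute-phase and STAT3 target genes (rows). The SLC39A14 points lie at -0.45, 0.24, and -0.20, and for most of the other genes the SLE point likewise lies right of the ENT and MLE points.

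SLC39A8 (100524695, chr8:118604852-118678115, plus strand) encodes ZIP8, which recovers manganese from bile at the canalicular membrane of hepatocytes. It was the one of the 8 that fell on PN in sham livers. The level ran from 56.3 to 73.9 CPM in ENT-sham (median 67.1), from 36.9 to 64.8 CPM in SLE-sham (median 45.3), and from 35.6 to 48.2 CPM in MLE-sham (median 41.0). All MLE-sham pigs were below all ENT-sham pigs, as were 9 of 10 SLE-sham pigs. SLC39A8 fell by 0.55 ± 0.10 in SLE-sham (0.682 times, adjusted p = 8.32e-06) and by 0.65 ± 0.10 in MLE-sham (0.635 times, adjusted p = 1.13e-06), being lower in 4 of 4 and 2 of 2 identifier numbers.

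With BDL, SLC39A8 ran from 48.7 to 108 CPM in ENT (median 62.2), from 39.0 to 59.9 CPM in SLE (median 46.5), and from 36.8 to 61.5 CPM in MLE (median 44.3). It fell by 0.48 ± 0.10 in SLE-BDL against ENT-BDL (adjusted p = 2.21e-04, lower in 4 of 5 identifier numbers), and MLE-BDL differed from ENT-BDL by -0.51 ± 0.11. BDL against sham gave -0.06 ± 0.09 for ENT pigs (adjusted p = 0.73), 0.02 ± 0.10 for SLE pigs (adjusted p = 0.958), and 0.08 ± 0.11 for MLE pigs (adjusted p = 0.671). The 95% intervals of these differences ran from -0.24 to 0.13, from -0.17 to 0.21, and from -0.13 to 0.30.

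SLC39A4 (100156896, chr4:372681-378519, plus strand) encodes ZIP4, the zinc importer of the intestinal brush border. It was the faintest of the 8, with 13 to 163 counts a library. It ran from 0.78 to 4.95 CPM in ENT-sham (median 2.79), from 2.21 to 9.15 CPM in SLE-sham (median 5.91), and from 0.846 to 6.54 CPM in MLE-sham (median 4.45). SLC39A4 rose by 1.12 ± 0.30 in SLE-sham against ENT-sham (2.17-fold, adjusted p = 0.00323; 0.98, under the fold threshold, with the identifier number as a block), where 7 of 10 SLE-sham pigs were above all ENT-sham pigs and 4 of 4 identifier numbers were higher. MLE-sham gave 0.59 ± 0.31 (adjusted p = 0.178). With BDL it ran from 0.981 to 7.80 CPM in ENT (median 2.09), from 1.79 to 7.61 CPM in SLE (median 3.94), and from 1.82 to 6.42 CPM in MLE (median 3.76). SLE-BDL against ENT-BDL gave 0.77 ± 0.31 (adjusted p = 0.0691). That value became 1.13 without ENT-BDL replicate 8 (adjusted p = 0.00517) and 0.86 without SLE-BDL replicate 6 (adjusted p = 0.0461), and was 0.98 with the identifier number as a block (adjusted p = 0.0162). It did not pass in the other fits that left out 1 pig, where the adjusted p reached 0.134, and was 0.66 without SLE-BDL replicate 1. The summed level of 8 intestinal epithelium markers reached 182 CPM in SLE-sham and 219 CPM in SLE-BDL. It reached 80.5 and 76.5 CPM in ENT-sham and ENT-BDL, and 65.3 and 88.0 CPM in MLE-sham and MLE-BDL. The medians in sham livers were 45.5 (ENT), 44.6 (SLE), and 36.6 CPM (MLE). Of the 4 tested, 1 rose over 2-fold in SLE-sham and 1 in MLE-sham against ENT-sham, beside 5.24% and 3.71% of all genes in either direction. The part of these cells was not tested.

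Compared per transcript length (RPKM, from the exon lengths in the table), the mean over the 60 livers was 10127.5 for MT1D and 624 for MT3. SLC39A14 followed at 38.7, SLC30A10 at 26.9, SLC30A1 at 24.1, and SLC39A8 at 14.7, with MTF1 at 2.36 and SLC39A4 at 1.28. The regulator of the metallothioneins was thus among the faintest transcripts of the set and MT1D the most abundant. The order of the transporters changed between groups. By group means SLC30A1 lay above SLC30A10 in both SLE groups (29.5 against 28.7 in SLE-sham) and in MLE-BDL. In ENT-BDL, SLC39A8 (18.0) lay above SLC30A1 (17.3).

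Other genes of metal handling were read from lists by family or role, beside which 27.5% of all genes passed in SLE-sham and 21.1% in MLE-sham against ENT-sham. Of the 10 SLC30 genes 8 were tested. In SLE-sham against ENT-sham 5 rose and 0 fell, and in MLE-sham 4 rose and 0 fell, with SLC30A1 and SLC30A10 counted among them where they passed. SLC30A2, which loads zinc into vesicles, rose from 0.654 ± 0.370 CPM in ENT-sham to 2.71 ± 2.11 CPM in SLE-sham (log2 2.02 ± 0.39, adjusted p = 4.81e-05) and to 2.71 ± 1.16 CPM in MLE-sham (2.03 ± 0.40, adjusted p = 1.03e-04). SLC30A9 rose by 0.42 ± 0.09 (adjusted p = 2.10e-04) and 0.45 ± 0.09 (adjusted p = 1.74e-04). No exporter of this list fell on PN at the adjusted p, and the median over the 8 was 0.24 and 0.35.

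Of the 14 SLC39 genes 13 were tested, with 4 higher and 1 lower in SLE-sham and 2 higher and 1 lower in MLE-sham against ENT-sham, the lower one being SLC39A8. These are 5 of 13 and 3 of 13 genes, beside 27.5% and 21.1% of all genes. SLC39A7, which releases zinc from the endoplasmic reticulum, rose by 0.29 ± 0.07 in SLE-sham (adjusted p = 0.00186) and by 0.29 ± 0.08 in MLE-sham (adjusted p = 0.00291). SLC39A10, a zinc importer of the plasma membrane, rose by 0.31 ± 0.11 in MLE-sham (adjusted p = 0.0392) and fell by 0.51 ± 0.11 with BDL in SLE (adjusted p = 0.00467). Its interaction of BDL with SLE against ENT was -0.69 ± 0.16 (adjusted p = 0.00826), of the opposite sign to that of SLC39A14.

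Of 8 tested genes of manganese and iron handling outside these families, 4 rose and 0 fell in both PN sham groups, beside 27.5% and 21.1% of all genes that passed in either direction. TFRC, the transferrin receptor, rose from 38.1 ± 12.9 CPM in ENT-sham to 110 ± 15 CPM in SLE-sham (1.54 ± 0.18, adjusted p = 1.31e-09) and to 131 ± 31 CPM in MLE-sham (1.79 ± 0.18, adjusted p = 7.97e-11). SLC11A2, the divalent metal transporter DMT1, rose by 0.32 ± 0.10 in MLE-sham (adjusted p = 0.0165). SLC40A1, the iron exporter ferroportin, fell by 1.01 ± 0.14 with BDL in MLE (adjusted p = 1.79e-06). It was the 1 gene of the 8 that fell there, while 2 rose, SLC11A1 by 0.72 (adjusted p = 0.0246) and ATP2C1 by 0.25 (adjusted p = 0.00821), beside 14.4% of all genes.

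Of 12 copper genes 1 rose and 1 fell in each PN sham group, below the shares of 27.5% and 21.1% over all genes, the rise in both being ATOX1, a copper chaperone, by 0.46 (adjusted p = 6.76e-04) and 0.47 (adjusted p = 0.00112). CP, the copper carrier ceruloplasmin and itself an acute-phase protein, fell by 1.54 ± 0.38 with BDL in ENT pigs (adjusted p = 0.00284) and fell by 1.45 ± 0.43 with BDL in MLE pigs (adjusted p = 0.0153). Of 4 manganese enzymes, 1 rose and 2 fell in SLE-sham and 0 rose and 2 fell in MLE-sham. SOD2, the mitochondrial superoxide dismutase, rose by 0.65 in SLE-sham (adjusted p = 3.73e-04). GLUL, glutamine synthetase, fell by 0.52 in SLE-sham (adjusted p = 0.0408) and by 1.04 in MLE-sham (adjusted p = 1.45e-04). Of 10 glucocorticoid-induced genes, 2 rose and 2 fell in SLE-sham and 2 rose and 1 fell in MLE-sham, with medians of 0.03 and -0.01. In SLE-BDL against ENT-BDL 5 of these rose and 0 fell (median 0.40, with 19.6% of all genes passing), and the median in MLE-BDL against ENT-BDL was -0.28.

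Over the 60 livers the levels of MT1D and MT3 ranked alike (Spearman 0.815), and both ranked against SLC39A8 (-0.623 and -0.674). These libraries share the differences between groups, and with group means subtracted the values were 0.240, 0.066, and -0.012. By the rule of likeness, the gene most like MT1D was MT-2B (0.885, and 0.555 with group means subtracted), followed by SPIDR (0.814 and 0.472) and OCEL1 (0.779 and 0.453). For MT3 they were MT-2B (0.824 and 0.234), IARS (0.815 and 0.182), and PDP1 (0.799 and 0.047). These values fell more for MT3 than for MT1D when group means were subtracted.

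SLC30A1 was most like STARD4 (0.813, and 0.642 within groups), FLVCR1 (0.807 and 0.555), and SOAT1 (0.796 and 0.527). SLC30A10 was most like ARNTL (0.813 and 0.685), MAST3 (0.799 and 0.589), and DGKK (0.737 and 0.562). SLC39A14 was most like ATP2A2 (0.802 and 0.722), EDEM3 (0.783 and 0.5259), and FNDC3B (0.772 and 0.622). For SLC39A8 they were RASSF6 (0.813 and 0.456), DECR1 (0.802 and 0.536), and ADTRP (0.798 and 0.594). MTF1 and SLC39A4 had no gene above 0.679, with TUBA8 first for MTF1 (0.679 and 0.282) and VPS28 for SLC39A4 (0.643 and 0.448).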

How the data were processed

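The authors trimmed paired-end reads with fastp, aligned them to Sscrofa11.1 with HISAT2 2.0.5, and counted reads per gene with featureCounts 1.5.0-p3, and they deposited these whole-number counts without normalization. Features without a gene name (24, at most 0.0407% of a library) were left out. Groups came from the labels. RPKM was computed from these counts and the exon length of each gene. Counts of 16210 genes kept by filterByExpr were scaled by TMM and fitted for all 60 pigs in 1 quasi-likelihood model in edgeR 4.0.16 (R 4.3.3), with Benjamini-Hochberg adjustment over these genes, so that p measures the spread between pigs of a group. The scripts were tested on simulated data. Members, lists, and tests were chosen with earlier results of these data known. Genes named beside the members were up to 3 of each list with the smallest adjusted p in a comparison, and the 3 most alike of each member among genes with a mean log2 CPM of at least 2. Alternatives were DESeq2 1.42.0, RLE, other filters, fits of the groups compared, blocks, pigs left out, and, chosen after seeing the data, 2 libraries with 1 pig identifier summed. Replicate numbers do not pair pigs: residuals of 82 same-numbered pairs correlated at -0.231 to 0.381 (median -0.011). Depth and counting error are contained in the SD and SE.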

Additional observations from a re-analysis of the deposited data

Results flagged for a closer look

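SLC39A14 is listed because the effect of BDL differed between diets. The interaction of BDL with SLE against ENT was 0.69 ± 0.15 on the log2 scale, with a fall in ENT and a positive difference in SLE that did not pass.

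For each of the 8 genes the 4 groups of at most 10 pigs were checked for a pig far from the others. Of these 32 sets of values 7 held such a pig, all in ENT-BDL or SLE-sham. The nominal rate of the check is about 1 in 20 for values with a normal distribution. It was run on CPM without a log scale and on sets that share pigs, so the rate by chance is not known here. In ENT-BDL, replicate 3 was high for MT1D (6099 CPM, the next pig at 4259), replicate 10 for MTF1 (14.7 CPM, next 12.1), replicate 8 for SLC39A4 (7.80 CPM, next 3.59), and replicate 4 for SLC39A8 (108 CPM, next 67.2). In SLE-sham, replicate 5 was high for both MT1D (13470 CPM, next 10070) and MT3 (961 CPM, next 583), and replicate 6 for SLC39A8 (64.8 CPM, next 49.9). All 7 were high values, from 5 members and 6 pigs.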

How the results depend on the processing

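The counts of members past both thresholds (3 of 8 in SLE-sham, 2 of 8 in MLE-sham, and, with MT3 left out, 1 of 7 in SLE-BDL, each against the ENT group of the same surgery) were kept under DESeq2, RLE, other filters, fits of the groups compared, the replicate block, and the sum of SLE-sham 9 and 10. With the identifier number as a block the count in SLE-sham was 2, since SLC39A4 then lay at 0.98, under the fold threshold (adjusted p = 0.0114). Leaving out 1 pig at a time gave 1 to 2 in SLE-BDL against ENT-BDL, with 2 without ENT-BDL replicate 8, and left the other counts as they were. Without the fold threshold they became 6, 5, and 5, where 27.5%, 21.1%, and 19.6% of all genes passed, and 1 in place of 0 with BDL in ENT and in MLE. Of 666 values of single members under these alternatives 651 kept their side of the adjusted p, 15 did not, and 0 turned direction while past it, leaving out values given without a test. With the replicate block 1 value moved past the adjusted p (SLC39A14 in MLE-BDL against SLE-BDL, -0.43, adjusted p = 0.0428) and none was lost. Leaving out 1 pig at a time moved 4 of 74 member values across the adjusted p. SLC39A4 had as few as 13 counts in a library, and its log2 difference in MLE-BDL against ENT-BDL was 0.56, and 0.92 without ENT-BDL replicate 8. For SLC39A14 that comparison gave 0.38, and 0.33 with the identifier block. The cause of these shifts was not tested.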
